A study of Mus musculus with 2 samples.

Results

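The App family and its secretases were described here through 8 genes, taken from the 55536 genes of the GENCODE M21 annotation by an exact match of the gene symbol. App, Aplp1 and Aplp2 are the 3 precursor proteins, and Bace1, Adam10, Psen2, Ncstn and Psenen are 5 genes of the proteases that cut them. Polyadenylated RNA had been sequenced from midbrain of B6NCrl mouse embryos at 12.5 days of gestation, with male and female embryos mixed. Replicate 1 was a pool of 120 embryos and replicate 2 a pool of 88, labelled as separate biological replicates, and each library started from 10 ng of RNA. These 2 libraries form the only group, so no condition is contrasted, no p-value is given and an SD reflects the spread between 2 pools. Levels are in TPM (an abundance per transcript length, scaled to a fixed total per library), given as mean ± SD with n = 2. All coordinates refer to mm10.

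The App proteins span the membrane once, and their large extracellular part is shed by proteases. The alpha secretase Adam10 or the beta secretase Bace1 makes the first cut, and gamma secretase then cuts the remaining stub within the membrane. Gamma secretase is a complex of a presenilin (the catalytic subunit, such as the product of Psen2), nicastrin (Ncstn), presenilin enhancer (Psenen) and an Aph1 protein. The amyloid-beta peptide lies in App and not in Aplp1 or Aplp2. In the developing brain the 3 precursors are known for roles in cell adhesion, neuronal migration and synapse formation. Some of the same secretases also cut Notch, cadherins and many other surface proteins.

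The libraries held 30274342 and 38421860 expected counts (reads assigned by a model, which need not be whole), of which 29056772 and 37122519 fell on genes. All 11 midbrain markers, among them Otx2, reached 1 TPM in both libraries, while 0 of 10 Hox genes of the hindbrain and spinal cord did. All 12 neuronal and all 8 progenitor markers reached it too. Summed neuronal markers stood at 2467 and 2378 TPM in replicates 1 and 2, and progenitor markers at 2776 and 2766 TPM. The transcription factor Pax6, 1 of those progenitor markers, passed a 2-fold limit between the libraries, at 57.16 and 16.88 TPM. Markers of other cell types were also found, and 4 of these lists had higher sums in replicate 2. Erythroid markers (8 of 8 at 1 TPM or more) summed to 14917.5 and 17484 TPM, mesenchymal markers (6 of 6) to 1001 and 1419 TPM, endothelial markers (6 of 6) to 89.6 and 99.5 TPM and microglial markers (5 of 6, with Ptprc at 0.99 and 0.91 TPM) to 54.7 and 65.9 TPM. Oligodendrocyte markers (3 of 6) summed to 32.12 and 29.4 TPM and astrocyte markers (1 of 4) to 9.51 and 8.23 TPM, with Gfap near 0 at a mean of 0.03 TPM. Against the direction of these sums, Sox10 (0.37 and 0.91 TPM) and S100b (0.27 and 0.77 TPM) passed the 2-fold limit as lower in replicate 1. Both were under 1 TPM. In such bulk tissue, fewer cells of a type and less RNA per cell cannot be told apart.

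All 8 genes were detected, at 1 TPM or more in both libraries, as were 59.4% of 22028 protein-coding genes. The 3 precursors were the most abundant of the 8, the gamma secretase subunits Psenen and Ncstn came next, and Adam10, Bace1 and Psen2 followed in that order in both libraries. Each gene lay apart from its neighbour in this order, the lower gene's higher library being below the higher gene's lower library, except Psenen and Ncstn, whose ranges overlapped. Mean levels ran from 5.61 to 241 TPM, against a median of 22.2 TPM over the 13083 detected protein-coding genes. Only Psen2 lay below that median. The order rests on the annotation and on the transcripts counted at 1 place, Aplp2 and App, as described below.

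**Figure D1:**
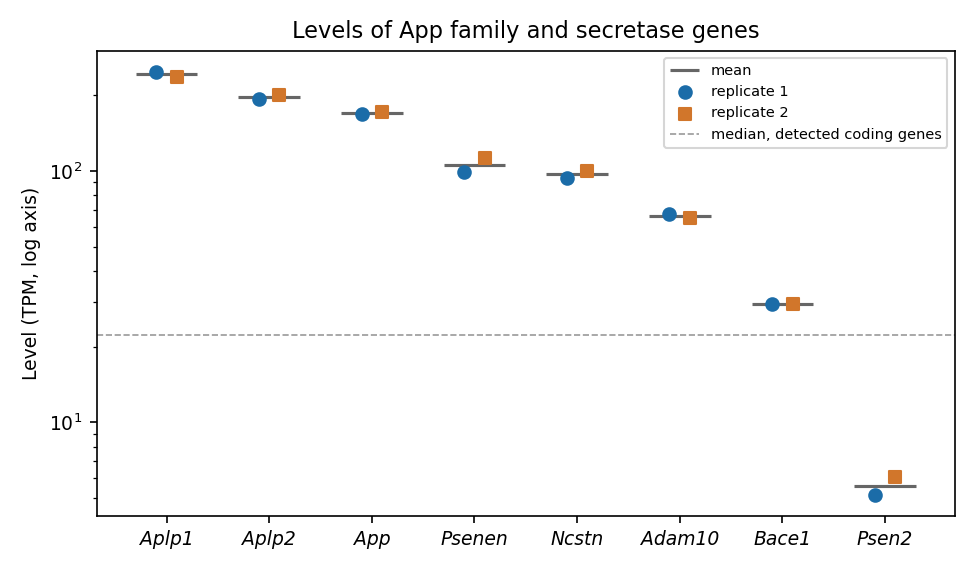
Level of each gene in TPM on a log axis, with replicate 1 as circles, replicate 2 as squares, the mean of both as a bar and the median of detected protein-coding genes as a dashed line. The 3 precursors lie between 168 and 247 TPM in both libraries, and Psen2 lies below 7 TPM and below the dashed line.

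Aplp1, the family member made mainly in the nervous system, had the highest level, 247 TPM in replicate 1 and 235.67 TPM in replicate 2 (241 ± 8.15 TPM). The gene (ENSMUSG00000006651.8, chr7:30434982-30445535, minus strand) was above 95.7% of detected protein-coding genes. Its 10239 and 12383 counts came almost wholly from 1 coding transcript, Aplp1-201 of 654 codons, which took 98.07% and 98.70% of the gene's TPM. It is the only coding transcript of the gene in the annotation, and Aplp1 is known to lack the Kunitz domain of the other precursors. The other 4 transcript models were retained introns at under 1% each.

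Aplp2 (ENSMUSG00000031996.17, chr9:31149557-31211815, minus strand) stood at 192 and 200.3 TPM (196 ± 5.61 TPM), from 8660 and 11228 counts. App itself (ENSMUSG00000022892.11, chr16:84949685-85173766, minus strand) stood at 168 and 171 TPM (169.6 ± 1.81 TPM), from 9822 and 12420 counts. Summed over the 3 genes, precursor TPM was level between the pools, at 608 and 607 TPM. The total of TPM is fixed per library, and with the spike-in scaling described below all 3 genes were lower in replicate 1. Aplp1 supplied 39.7 ± 1.29% of the summed precursor TPM, Aplp2 32.3 ± 0.963% and App 27.9 ± 0.332%. The gene best known for amyloid-beta was thus the least abundant precursor over all M21 transcripts, 1.42 ± 0.0633-fold below Aplp1 and 1.16 ± 0.0207-fold below Aplp2. Over protein-coding transcripts alone App was above Aplp2, as described below.

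App and Aplp2 each carry a cassette exon, included or skipped as a unit, that codes for a Kunitz domain, a fold that inhibits serine proteases. In App it is exon 7 (chr16:85043576-85043743, minus strand) and in Aplp2 it is also exon 7 (chr9:31167561-31167728, minus strand), numbered over the exons of all coding transcripts of each gene. Both exons are 168 bases long. They are printed because each separates the coding transcripts of its gene and they can be compared base by base. The sequences were read 5′ to 3′ from the GENCODE M21 transcripts, and capitals mark bases that are identical at the same position of both exons.
App exon 7: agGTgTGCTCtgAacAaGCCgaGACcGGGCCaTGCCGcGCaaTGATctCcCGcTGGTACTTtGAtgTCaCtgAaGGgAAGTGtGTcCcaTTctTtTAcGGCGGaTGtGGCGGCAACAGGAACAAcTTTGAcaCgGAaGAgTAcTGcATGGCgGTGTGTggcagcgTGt
Aplp2 exon 7: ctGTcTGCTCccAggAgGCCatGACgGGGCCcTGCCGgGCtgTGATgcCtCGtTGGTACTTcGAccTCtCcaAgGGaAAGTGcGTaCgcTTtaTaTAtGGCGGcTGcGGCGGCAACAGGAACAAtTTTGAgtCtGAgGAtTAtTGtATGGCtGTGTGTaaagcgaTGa
Of the 168 positions, 114 (67.9%) were identical, and the longest identical run covered 17 bases.

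App-201, which skips exons 7 and 8 and codes for 695 codons, the form known as the main neuronal one, was the leading App transcript. It stood at 136 and 127 TPM, or 80.69% and 74.58% of the gene's TPM. The junction that defines it joins exon 6 to exon 9, shown here with 20 bases on each side and exon 9 in capitals.
App junction of exons 6 and 9: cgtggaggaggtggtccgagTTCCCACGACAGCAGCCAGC
The transcripts with the Kunitz exon were minor forms. They took 17.8% of coding App TPM in replicate 1 and 22.7% in replicate 2 (20.3 ± 3.45%). In expected counts, 1915 of 9718 coding reads (19.7%, Wilson 95% interval 18.9 to 20.5%) and 2981 of 12226 (24.4%, 23.6 to 25.2%) went to them. The Kunitz share was higher in replicate 2, and the intervals did not overlap. These intervals cover counting error only, not the model's division of reads between transcripts.

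Exon 8 of App (chr16:85040251-85040307, minus strand) is a 57-base exon that follows the Kunitz exon and codes for a stretch related to the OX-2 antigen.
App exon 8: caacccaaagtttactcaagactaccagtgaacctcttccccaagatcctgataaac
It was included in 7.87% and 9.44% of coding TPM (8.66 ± 1.11%), and in the annotation only together with exon 7. The Kunitz transcripts therefore divided into those with exon 8, App-203, App-206 and the rare App-207 (at most 0.07 TPM), and those without it, App-202 and App-204. App-203 (752 codons) took 6.49% and 8.12% of the gene's TPM, and App-206 (770 codons, the full set of exons) took 1.20% and 1.00%. App-202 (751 codons) took 4.45% and 3.86%, and App-204 (733 codons) took 5.34% and 8.95%.

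The late exon 15 of App (chr16:84971408-84971461, minus strand) separates a further kind of transcript. Forms that skip this 54-base exon are known mainly from non-neuronal cells, and its loss creates an attachment site for chondroitin sulfate.
App exon 15: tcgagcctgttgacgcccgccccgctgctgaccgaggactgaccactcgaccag
It was skipped in 12.1% of coding TPM in replicate 1 and 17.7% in replicate 2 (14.9 ± 3.96%). Combined with exon 7, 82.2% and 77.3% of coding TPM had no Kunitz exon and kept exon 15. The Kunitz exon with exon 15 kept made up 5.75% and 5.03%, and the Kunitz exon with exon 15 skipped made up 12.1% and 17.7%. No coding model of App lacks both exons, so the quantification could not report that combination.

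The higher Kunitz share of replicate 2 lay in the forms that also skip exon 15, which stood at 19.98 TPM in replicate 1 and 29.16 TPM in replicate 2. Every coding App model without exon 15 carries the Kunitz exon. Reads that skip exon 15 could therefore only be assigned to Kunitz forms, and the 2 shares are not independent. The forms with the Kunitz exon and exon 15 stood at 9.51 and 8.3 TPM, and App-201 at 136 and 127 TPM. In the same direction, summed mesenchymal markers were 1001 TPM in replicate 1 and 1419 TPM in replicate 2. Erythroid markers were 14917.5 and 17484 TPM, endothelial markers 89.6 and 99.5 TPM and microglial markers 54.7 and 65.9 TPM. The other cell type lists had lower sums in replicate 2. Neuronal markers were 2467 and 2378 TPM and progenitor markers 2776 and 2766 TPM. Oligodendrocyte markers were 32.12 and 29.4 TPM and astrocyte markers 9.51 and 8.23 TPM. The part of these cell types in the App transcript shares was not tested.

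Aplp2 used its Kunitz exon more than App did in both libraries, in 41.8% and 44.3% of coding TPM (43.0 ± 1.73%). As counts the share was lower, 34.7% (Wilson 33.6 to 35.9%) in replicate 1 and 37.0% (36.0 to 38.0%) in replicate 2. On either scale the lower Aplp2 library exceeded the higher App library. The genes also differed in their second cassette exon. Exon 14 of Aplp2 (chr9:31156190-31156225, minus strand) is 36 bases long, and its inclusion is known to interrupt a chondroitin sulfate attachment site.
Aplp2 exon 14: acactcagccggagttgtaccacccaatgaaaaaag
It was included in 50.5% and 47.6% of coding TPM (49.1 ± 2.02%).

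The 4 coding transcripts of Aplp2 took more even shares than those of App. With neither cassette exon, Aplp2-209 (695 codons) took 33.4% and 35.4% of coding TPM. With exon 14 alone, Aplp2-202 (707 codons) took 24.7% and 20.3%. With the Kunitz exon alone, Aplp2-201 (751 codons) took 16.1% and 17.0%. With both, Aplp2-203 took 25.7% and 27.3%. This last model is incomplete at its 3′ end in the annotation and is 1961 bases long against 3462 to 3634 for the other 3, so each read adds more TPM to it.

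**Figure D2:**
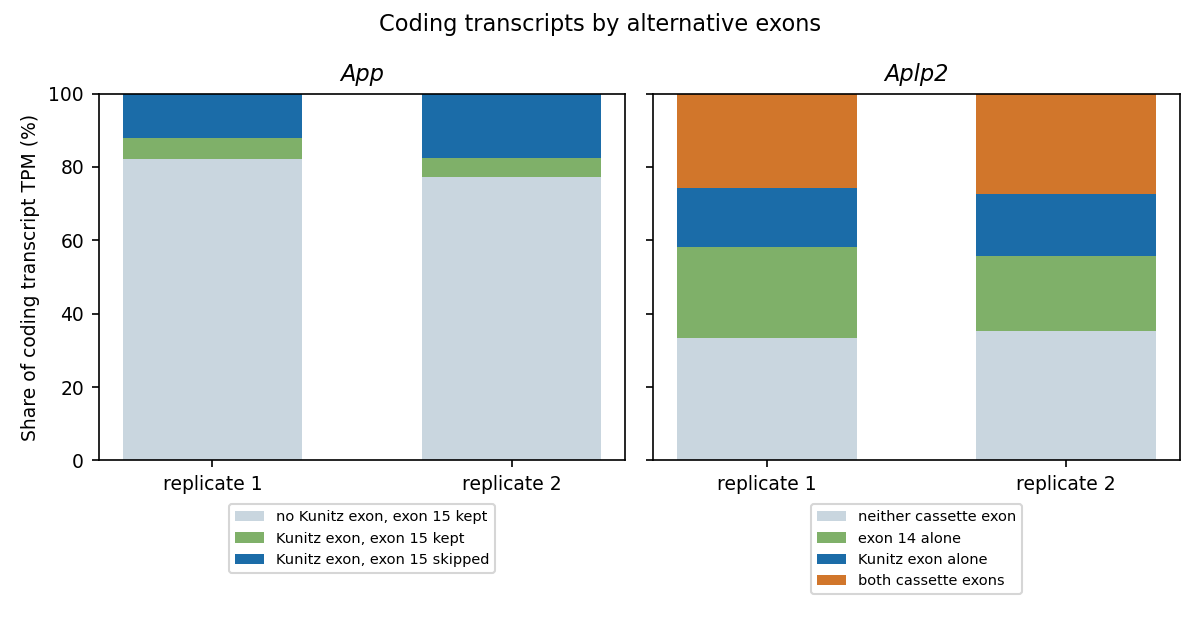
Share of coding transcript TPM in percent, by combination of cassette exons, for App (left) and Aplp2 (right) with 1 bar per library. App is dominated by the form without the Kunitz exon and with exon 15 (82.2% and 77.3%), whereas the 4 Aplp2 forms each take between 16.1% and 35.4%.

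Among the proteases that make the first cut, Adam10, the main alpha secretase of neurons, stood at 67.56 and 64.79 TPM (66.2 ± 1.96 TPM), from 5643 and 6856 counts. The gene (ENSMUSG00000054693.14) lies at chr9:70678997-70780229 on the plus strand. Adam10-201 (749 codons) took 99.45% and 99.85% of its TPM, the least divided transcript use of the 8 genes. Its level was above those of the other alpha secretase candidates in both libraries. It exceeded Adam17, which also sheds tumour necrosis factor, by 2.42 ± 0.246-fold and Adam9 by 3.20 ± 0.162-fold.

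Bace1, the beta secretase, stood at 29.67 and 29.56 TPM (29.6 ± 0.0778 TPM), from 2801 and 3568 counts. The gene (ENSMUSG00000032086.12) lies at chr9:45838580-45864399 on the plus strand. Adam10 was 2.23 ± 0.0603-fold above Bace1, and App was 5.73 ± 0.0762-fold above it. With the older M4 annotation described below, mean Bace1 was 35.5 TPM and Adam10 69.7 TPM. Over protein-coding transcripts of M21 alone they were 21.6 and 65.9 TPM. Both ratios thus depend on the transcripts counted by more than these SDs. The paralog of Bace1, Bace2, was near the limit of detection, at 1.65 and 2.34 TPM, so Bace1 led it by 15.3 ± 3.78-fold.

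Bace1-201 (501 codons) took 68.45% and 69.64% of Bace1 TPM and the retained-intron model Bace1-204 took 28.54% and 25.41%. Bace1-202 (467 codons) took 2.61% and 4.95%. That transcript skips a 102-base exon (chr9:45858400-45858501, plus strand, exon 7 over all coding transcripts), which codes for part of the protease domain that includes an active-site aspartate. It is printed because it is the only cassette exon found in Bace1.
Bace1 exon 7: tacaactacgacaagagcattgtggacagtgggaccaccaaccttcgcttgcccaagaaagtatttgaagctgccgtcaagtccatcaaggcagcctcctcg
The exon was included in 96.4% and 93.4% of coding TPM (94.9 ± 2.11%). As counts the inclusion was 97.5% (Wilson 96.8 to 98.1%) and 95.5% (94.7 to 96.2%).

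Of the gamma secretase genes, Psenen, whose small membrane protein activates the complex, stood at 98.96 and 113 TPM (106 ± 9.68 TPM). Ncstn, which codes for the large subunit with the extracellular domain, stood at 93.84 and 100.11 TPM (97.0 ± 4.43 TPM). Psenen (ENSMUSG00000036835.7, chr7:30561863-30563627, minus strand) had 1031 and 1501 counts, and Ncstn (ENSMUSG00000003458.12, chr1:172066013-172082795, minus strand) had 4296 and 5664. Psenen was the higher in each library, by 1.09 ± 0.0500-fold, but its lower library was below the higher library of Ncstn. Psenen also lies 116327 bases from Aplp1 on chromosome 7, with 12 genes between them.

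Psen2, a catalytic subunit, was by far the lowest of the 8, at 5.17 and 6.05 TPM (5.61 ± 0.622 TPM). The gene (ENSMUSG00000010609.15, chr1:180227004-180263438, minus strand) had only 170 and 214 counts and lay above 19.3% of detected protein-coding genes. Ncstn exceeded it by 17.3 ± 1.13-fold. The Aph1 genes, which code for the scaffold subunit of the complex, together reached 41.4 ± 4.11 TPM, above Psen2 and below Ncstn and Psenen in both libraries. Aph1a was at 22.65 and 26.49 TPM, Aph1b at 14.91 and 15.51 TPM and Aph1c at 0.96 and 2.33 TPM. The mouse genes Aph1b and Aph1c are close copies, so the division of reads between them is uncertain.

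Summed over the 5 secretase genes chosen here, the level was 295 and 313 TPM, or 0.486 and 0.516 of the precursor sum (0.501 ± 0.0215). Psenen and Ncstn together made up most of it.

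Transcripts that are not annotated as coding took a large part of the TPM of some of these genes and little of others. Retained-intron models took 35.4% and 37.4% of Aplp2 (36.4 ± 1.40%), 27.0 ± 2.22% of Bace1 and 18.1 ± 1.80% of Ncstn. They took 1.59 ± 0.521% of App, 1.62 ± 0.449% of Aplp1, 3.83 ± 0.878% of Psenen and 0.351 ± 0.278% of Adam10. For Psen2 they took 16.2% in replicate 1 and 4.62% in replicate 2, the widest gap between the libraries. As shares of counts the retained-intron models were smaller, at 20.2 ± 1.41% for Aplp2, 16.2 ± 1.47% for Bace1 and 5.21 ± 0.575% for Ncstn. Most of these models are short, so a given number of reads weighs more in TPM. The leading one of Aplp2, Aplp2-207 of 1877 bases, took 21.55% and 24.06% of Aplp2 TPM.

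Ncstn-201 (708 codons) was the only coding transcript of Ncstn and took 80.98% and 76.54% of its TPM. The retained-intron models Ncstn-203, Ncstn-205 and Ncstn-202 took between 4.22% and 7.74% each. Psenen-201 (101 codons) took 79.49% and 80.24% of Psenen TPM, Psenen-203, with the same number of codons, took 5.80% and 6.60%, the short Psenen-204 took 5.52% and 3.45%, and the noncoding Psenen-205 took 4.10% and 5.49%. For Psen2 the shares moved most between the libraries. Psen2-205 (448 codons) took 77.26% and 55.15%, but 25.79% and 16.48% by the posterior mean TPM that the authors also deposited. Psen2-202 (447 codons), Psen2-208 and Psen2-207 were listed at 0 in replicate 1 and at 13.19%, 14.30% and 12.71% in replicate 2. Psen2-212 took 10.56% and 4.64%, while Psen2-210 and Psen2-211 took 5.63% and 5.61% in replicate 1 and were listed at 0 in replicate 2. With 170 and 214 counts over 12 models, such shares rest on few reads.

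**Figure D3:**
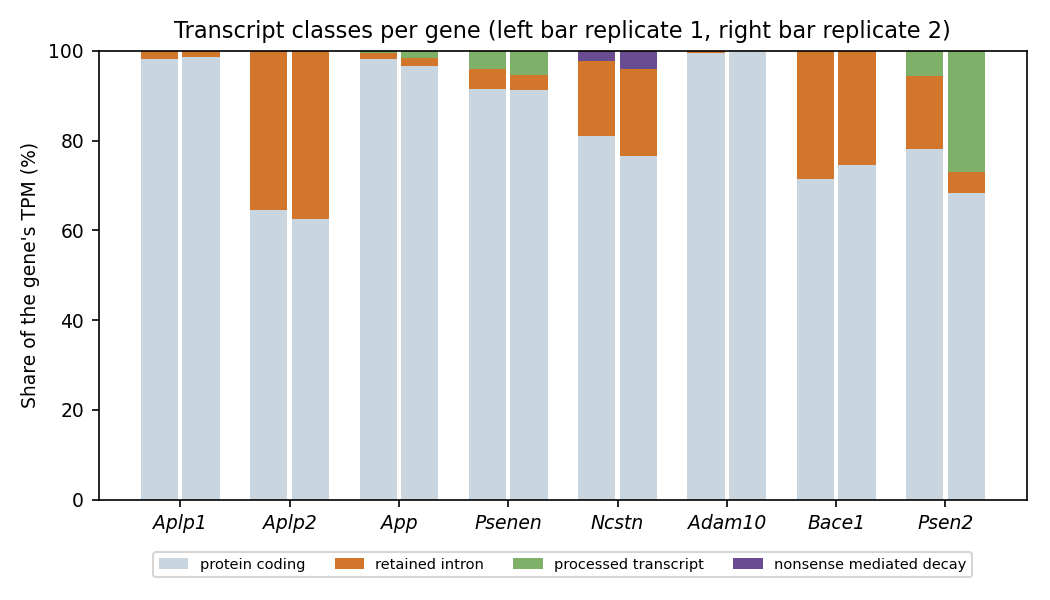
Share of each gene's TPM in percent by annotated transcript class, with replicate 1 as the left bar and replicate 2 as the right bar of each pair. Aplp1, App and Adam10 are at least 96.5% protein coding in both libraries, whereas retained introns take 35.4% and 37.4% of Aplp2.

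Several of these loci overlap genes on the other strand, and whether reads were counted by strand is not given in the sources used here. Bace1 shares 2079 bases with Gm49338 (25.3 and 23.41 TPM), 1589 bases with the antisense gene Gm16536 (6.11 and 4.52 TPM) and 975 bases with Rnf214 (74.83 and 77.15 TPM). Psenen shares 327 of its 1765 bases with U2af1l4 (63.44 and 69.34 TPM) and 284 bases with Gm49396 (17.94 and 17.06 TPM). Ncstn shares 267 bases with Copa (168.04 and 171.83 TPM), whose level was above its own. The levels of Bace1, Psenen and Ncstn are therefore less certain than their counts alone would give. App and Psen2 overlap genes whose levels were at most 2.36 TPM.

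The authors deposited a second quantification of the same libraries against the older M4 annotation, which has 33 transcript models for these 8 genes where M21 has 61. Aplp2 was 0.49 and 0.51 higher on the log2(TPM + 0.1) scale with M21 than with M4. Over the 16078 genes that reached 1 TPM in any of these tables, the median difference was −0.07 in each library, and 8.49% were higher with M21 by more than 0.3 in both libraries. None of the 8 genes differed by 2-fold, as did 3.12% of all genes. For Aplp2 the counts were nearly equal, 1.02-fold in both libraries, but the effective length was 1.45-fold and 1.47-fold longer in M4, which has 2 Aplp2 models and no retained-intron ones.

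With M4, Aplp2 stood at 137 and 141 TPM, below App at 175.2 and 174.52 TPM, so the order of these precursors was the reverse of that with M21. The same reversal was seen with M21 when only protein-coding transcripts were summed, a comparison added after the values were seen. App was then at 165.1 ± 0.283 TPM and Aplp2 at 125 ± 0.813 TPM. Aplp1 remained the highest under each of these settings. Which of Aplp2 and App is the more abundant thus depends on the transcript models counted. M4 also lacks some coding Aplp2 models of M21, so the effect of the short retained-intron models alone was not isolated.

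Bace1 moved the other way and was 0.26 lower with M21 in both libraries, where 7.26% of all genes were lower by more than 0.1 in both. Its M21 counts were 0.918 and 0.915 of those with M4. The remaining 6 genes lay between 0.03 and 0.09 below their M4 values, near the median of all genes. M4 has a single App model, App-201, and so carries no information on the Kunitz exon or exon 15 of App.

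**Figure D4:**
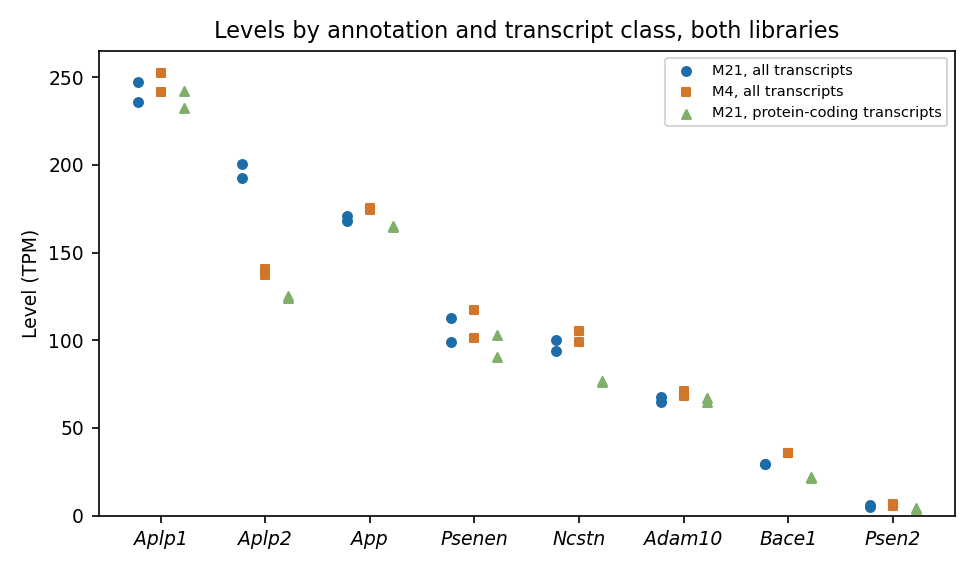
Level of each gene in TPM in both libraries with M21 over all transcripts (circles), M4 over all transcripts (squares) and M21 over protein-coding transcripts alone (triangles). Aplp2 lies above App by the circles only, and Aplp1 is highest by all 3.

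Between the pools each of the 8 genes differed by less than 2-fold, by an amount that depends on the scaling. Ratios of replicate 1 to replicate 2 were formed from counts with TMM scaling (library scaling by a trimmed mean of gene ratios), each with an exact 95% binomial interval for counting error. Of these genes 0 of 8 passed a 2-fold limit with an interval excluding equality, as did 841 of 19885 genes tested (4.23%). At a minimum of 50 counts in a library, which all 8 genes reached, 208 of 15158 genes (1.37%) passed. Of those 841 genes, 354 were higher and 487 lower in replicate 1. With scaling to the ERCC spike-ins (control RNAs added to each sample) 1090 genes passed, 217 higher and 873 lower. The median log2 ratio was 0.02 over the 8 genes and −0.01 over all genes tested. With spike-in scaling these medians were −0.25 and −0.28. A change of scaling shifts every log2 ratio by the same amount, so the difference of 0.03 between the medians cannot depend on it.

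Aplp1 had a log2 ratio of 0.09 (0.05 to 0.13) and Adam10 of 0.08 (0.03 to 0.13), both higher in replicate 1 beyond counting error, although with spike-in scaling they were −0.18 and −0.19. Psenen had a log2 ratio of −0.18 (−0.29 to −0.06) and was lower in replicate 1. The other 5 genes lay within counting error of equality. Intervals that exclude equality at any size were found for 32.3% of all genes tested and for 45.3% of genes with a mean of 1000 or more counts, so 3 of 8 is near the background. App had a ratio of 0.02 (−0.01 to 0.06), Aplp2 of −0.01 (−0.05 to 0.03), Bace1 of 0.01 (−0.06 to 0.09) and Ncstn of −0.04 (−0.09 to 0.02).

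Psen2 had the widest interval, 0.03 (−0.27 to 0.33). Its TPM was higher in replicate 2 while its scaled count was not, since its effective length was estimated at 1761 bases in replicate 1 and 1500.0 bases in replicate 2. Differences between these pools smaller than that interval were not detectable for Psen2 at this depth.

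**Figure D5:**
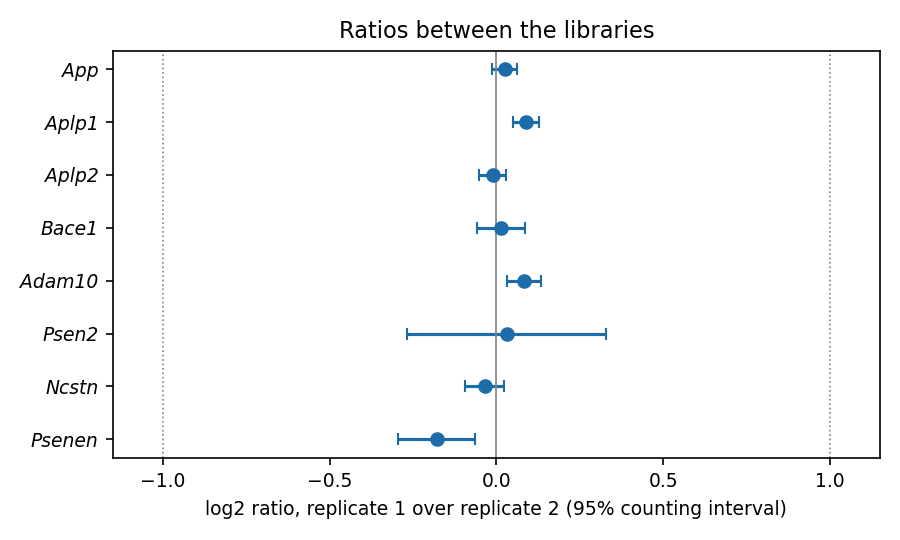
log2 ratio of replicate 1 to replicate 2 per gene with TMM scaling (points) and 95% counting intervals (bars), with dotted lines at the 2-fold limit. All 8 points lie between −0.18 and 0.09, and with spike-in scaling all would lie lower, with a median of −0.25.

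A wider set of 77 genes that act with these proteins was read in the same way. Of them 73 were detected, and the median level of the set was 27.5 TPM, against 101 TPM for the 8 genes. Of the 75 with enough counts 0 passed the 2-fold limit between the libraries, against 4.23% of all genes tested. Of all genes with 50 or more counts in a library, 1.37% passed. Intervals excluded equality for 24 that were higher and 19 that were lower in replicate 1, a larger share than the 32.3% of all genes tested and the 45.3% of genes with a mean of 1000 or more counts. Their median log2 ratio was −0.02. With spike-in scaling all ratios shift down by the same amount as above.

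Among 4 further alpha or beta secretase candidates, 3 were detected. Adam17 was highest at 26.03 and 28.83 TPM, and the meprin gene Mep1b had 0 counts in both libraries. Of 12 regulators of Adam proteases, 10 were detected. Tspan14, a tetraspanin that escorts Adam10 to the surface, was highest at 66.7 and 69.37 TPM, close to Adam10 itself. Tspan10, of the same group of tetraspanins, was at 0.07 and 0 TPM, and Rhbdf2, a partner of Adam17, at 0.86 and 1.44 TPM.

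All 10 adaptors that bind the App tail were detected, with a median of 49.4 TPM. Apbb1, also called Fe65, was highest at 127 and 130.3 TPM, and Apba1 was lowest at 3.05 and 2.71 TPM. The median over 16 trafficking genes, all of them detected, was 57.2 TPM. They ranged from Sorcs1, a sorting receptor, at 3.74 and 4.83 TPM to Rtn1, a reticulon of the endoplasmic reticulum, at 557 and 517 TPM. The amyloid-degrading enzymes, 6 of 6 detected, had a lower median of 11.9 TPM, or 19.6 TPM with M4. Mmp2, a matrix protease, led them at 34.82 and 50.11 TPM and Mmp9 was lowest at 5.75 and 4.87 TPM.

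The 3 Bri family genes, whose proteins bind App and its processing enzymes, also bear on its cleavage. Itm2b was highest at 249 and 288 TPM and Itm2c lowest at 112 and 128 TPM. All 3 were lower in replicate 1 beyond counting error, with a median log2 ratio of −0.19, where 45.3% of all genes with a mean of 1000 or more counts had intervals excluding equality in either direction. Of 23 other substrates shared with these secretases, all 23 were detected and the median was 29.97 TPM. The cadherin Cdh2 was highest at 177 and 170 TPM, near App, and the Notch ligand Jag2 was lowest at 5.71 and 4.54 TPM. Notch1, a receptor also cut by some of these secretases, stood at 40.89 and 44.06 TPM, below each of the 3 precursors in both libraries.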

How the data were processed

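Both libraries were primed with oligo-dT, fragmented by tagmentation and spiked with ERCC RNAs, per the labels. For each library the authors deposited gene and transcript tables against annotations M21 and M4 of mm10. Per the file headers they hold expected counts (not scaled), TPM and FPKM (scaled by effective length and depth), a posterior mean of TPM and the percent of a gene's TPM per transcript. The aligner, quantification tool and strand setting are not given in the sources used here. Rows naming no gene, mostly ERCC, took 4.02% and 3.38% of counts and were left out of ratios.

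TPM of M21 was used as deposited, and a gene was called detected at 1 TPM in both libraries. Cassette exons were found from GENCODE M21 coordinates as coding exons that other coding transcripts skip. Shares of counts carry Wilson intervals. Ratios used counts rounded to whole numbers, TMM scaling (edgeR 4.0.16, R 4.3.3), a minimum of 10 counts in a library and exact conditional binomial (Clopper-Pearson) 95% intervals, which cover counting error only. Simulated data with known ratios were used to test the ratio script. The comparison of annotations used log2(TPM + 0.1), a scale that shrinks differences of low genes.

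The members and gene lists were chosen with earlier results of these data known. All 8 members are named, with each pathway list's highest and lowest genes and those under 1 TPM. Marker lists are given by counts and sums. Transcripts at 5% or more of a gene's TPM in a library are named. Notch1, Pax6, Sox10, S100b, Aph1b and transcripts under that limit were named after their values were seen. With 2 libraries no likeness of pattern between genes was measured. Alternatives were other annotations, scalings, limits, units, transcript classes and single libraries.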

Additional observations from a re-analysis of the deposited data

How the results depend on the processing

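The order of the 8 levels changed at 2 places, Aplp2 and App, with M4 and with protein-coding transcripts alone. The log2 ratio of Aplp2 to App was 0.21 in the main quantification, −0.33 with M4 and −0.40 with protein-coding transcripts alone. The summed secretase level was 0.575 of the precursor sum with M4, against 0.501. The share of App with the Kunitz exon and the share without exon 15 were each 0% with M4, which has a single App model. The Kunitz share of Aplp2 was 35.9% from expected counts and 50.3% with M4, against 43.0%. M4 has only Aplp2-201 and Aplp2-202, so Aplp2 forms with neither or both cassette exons could not be reported there. The median log2 ratio of the 8 genes was −0.25 with spike-in scaling. The genes passing the limit between the libraries, 841 of 19885, were 208 of 15158 with a minimum of 50 counts and 1429 of 19885 at a 1.5-fold limit. The median of the 77 pathway genes was 29.97 TPM over detected ones and 26.6 TPM with M4, against 27.5 TPM. From either library alone, the Kunitz share of App was 17.8 to 22.7%, the share without exon 15 was 12.1 to 17.7%, the Kunitz share of Aplp2 was 41.8 to 44.3%, the log2 ratio of Aplp2 to App was 0.19 to 0.23 and the secretase to precursor ratio was 0.486 to 0.516.

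The order of levels did not change with FPKM, posterior mean TPM, TPM rescaled without spike-ins or either library alone. Single levels differed from the main value by 1 SD or more for 7 of 8 genes when TPM was rescaled, 5 with M4, 5 with protein-coding transcripts alone and 4 with posterior mean TPM. Each of the 8 log2 ratios stayed within its interval with RLE scaling, total counts or M4, and 7 left it with spike-in scaling. Posterior mean TPM and, for the levels, the restriction to protein-coding transcripts were added after the data were seen. The leading Psen2 transcript took 21.1% of the gene under posterior mean TPM, against 66.1%. No paired analysis was possible because there is only 1 group. Depth limits Psen2 most, at 170 and 214 counts.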
